A study of Mus musculus with 2 samples.

Results

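DNA replication and nucleotide synthesis genes are the 47 genes described here: the factors that license and open replication origins, the polymerases and accessory proteins of the fork, the enzymes that make its nucleotide precursors, and the cyclin E and E2F genes that switch them on before S phase. They were taken by name from a list, with the transcript of highest mean level standing for each gene. All 47 were found among the 22020 gene symbols of the table, and all 47 belonged to the 11356 genes called measured below, whose level averaged 1 RPKM or more (read number corrected for the length of the transcript and the size of the library) across the pair of libraries.

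The cells were LSK cells, stem and progenitor cells of the blood sorted as lineage-negative, c-Kit-positive and Sca-1-positive, from C57BL/6 mice aged 8 weeks. One group was Utx/p53 DKO, which lacks both Utx (Kdm6a, on the X chromosome, whose product removes methyl groups from lysine 27 of histone H3) and p53 (Trp53), and the other was p53 KO, so both groups lack p53 and the comparison asks what the loss of Utx adds. Each genotype had 1 library of polyadenylated RNA, with 19926294 reads for DKO cells and 17088105 reads for p53 KO cells. The labels do not give how the alleles were deleted, in which cells, or how many mice were pooled. With 1 library per genotype there is no replicate check, no test and no p-value: each difference below compares these libraries, and each 95% interval is an exact counting interval of the RPKM ratio that leaves out all other error.

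Before a cell copies its DNA, the origin recognition complex, Cdc6 and Cdt1 load the ring-shaped Mcm2 to Mcm7 helicase onto origins in G1. In S phase Cdc45 and the GINS complex activate that helicase, and polymerase alpha with primase lays down primers that polymerases delta and epsilon extend. Such cells differ in how often they divide, and the transcripts of these genes are known to be most abundant in dividing cells.

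Of the targeted genes, Kdm6a stood at 1.26 RPKM (132 reads) in DKO cells, against 5.32 RPKM (479 reads) in p53 KO cells, a ratio of 0.236 (95% interval 0.193 to 0.287). Trp53, deleted in both genotypes, stood at 12.9 RPKM in DKO cells, against 19.4 RPKM in p53 KO cells. Which exons were removed is not given in the labels, so a whole-transcript level does not measure the deletion. Of the genes behind the sort, Ly6a (Sca-1) stood at 281 RPKM in DKO cells, against 255 RPKM in p53 KO cells, and Kit at 16.0 RPKM in DKO cells, against 64.2 RPKM in p53 KO cells.

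The make-up of the libraries differed too. Of 20 granulocyte and monocyte markers 19 were measured, 15 of them higher and 2 lower in DKO cells by 2-fold or more, and the largest differences on the log2(RPKM + 1) scale were those of Cd177 (4.09), Ly6c2 (4.04), Elane (4.02) and Lyz2 (3.55). The 2 lower ones were Ltf (-2.40) and Itgam (-1.16). The 19 measured markers summed to 71908 RPKM (15.4% of all RPKM) in DKO cells, against 6397 RPKM (1.77%) in p53 KO cells. Elane, a neutrophil protease, alone stood at 26714 RPKM in DKO cells, against 1649 RPKM in p53 KO cells. Of 15 measured lymphoid and B cell markers 14 were lower by 2-fold or more, led by Dntt (-5.54), Rag2 (-3.45), Flt3 (-3.17) and Cd27 (-2.91). The other 1, Igll1, was higher by 2-fold or more, at 563 RPKM in DKO cells, against 166 RPKM in p53 KO cells. Of 10 erythroid markers 9 were lower, among them Hba-a1 (-3.40), Hbb-b1 (-2.86) and Car1 (-2.47), and of 11 long-term stem cell markers 7 were lower, among them Meis1 (-3.02), Kit (-1.94) and Hlf (-1.91). No measured marker of these 4 lists was at 0 in either library. In bulk RNA, fewer cells of a type and less RNA per cell cannot be told apart, and the part of this shift in the replication genes was not tested.

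The replication genes themselves lay close to the typical gene. On the log2(RPKM + 1) scale used for all differences here, DKO minus p53 KO, their median was -0.22, beside -0.24 for all measured genes, which puts the 47 genes 0.02 above the typical gene. None was at least 2-fold higher in DKO cells, where 6.6% of all measured genes were, and 1 (Pola2) was at least 2-fold lower, where 13.5% of all measured genes were. Counting both directions, 1 of 47 (2.13%) passed 2-fold, beside 20.1% of all measured genes and 18.4% of the 8696 genes whose mean level lay within the range of the 47. Measured from the all-gene median, 0 genes were 2-fold higher and 0 were 2-fold lower, where 9.63% and 8.76% of all measured genes were, and 39 of 47 (83.0%) lay within 1.5-fold of it, where 61.4% of all measured genes did. The middle 50% of the 47 genes spanned 0.63 log2 units, from -0.48 to 0.16, beside 0.88 for all measured genes, from -0.68 to 0.21.

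The sign of a small difference depends on the scaling, so positions relative to the all-gene median are given as well. As deposited, 16 of the 47 genes had the higher RPKM in DKO cells and 31 the lower, where 34.8% of all measured genes had the higher and 65.2% the lower. Setting summed RPKM equal left 6 of the 47 higher (20.4% of all measured genes), upper-quartile scaling 19 (43.3%), and the authors' gfold constants 38 (66.6%). On the log2 scale the all-gene median shifted by -0.31, 0.13 and 0.52, and the split of 2-fold calls over all measured genes from 750 higher and 1528 lower as deposited to 498 and 2709, 949 and 1251, and 1873 and 712. In the authors' deposited table, the GFOLD value (gfold's cautious version of a log2 fold change, which it can set to 0) was above 0 for 34 of the 47 genes, where 54.5% of all measured genes had such a value, below 0 for 6, where 22.9% did, and 0 for 7. Over 8 settings of pseudocount, scaling and transcript choice, 20 genes lay above the all-gene median in each and 18 lay below it in each. Each scaling multiplies all DKO values by 1 constant and so moves a gene and the all-gene median almost alike. The transcript choice bears only on genes with more than 1 transcript. The 8 settings are thus not 8 separate checks of a gene's side of that median, here or below.

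**Figure D1:**
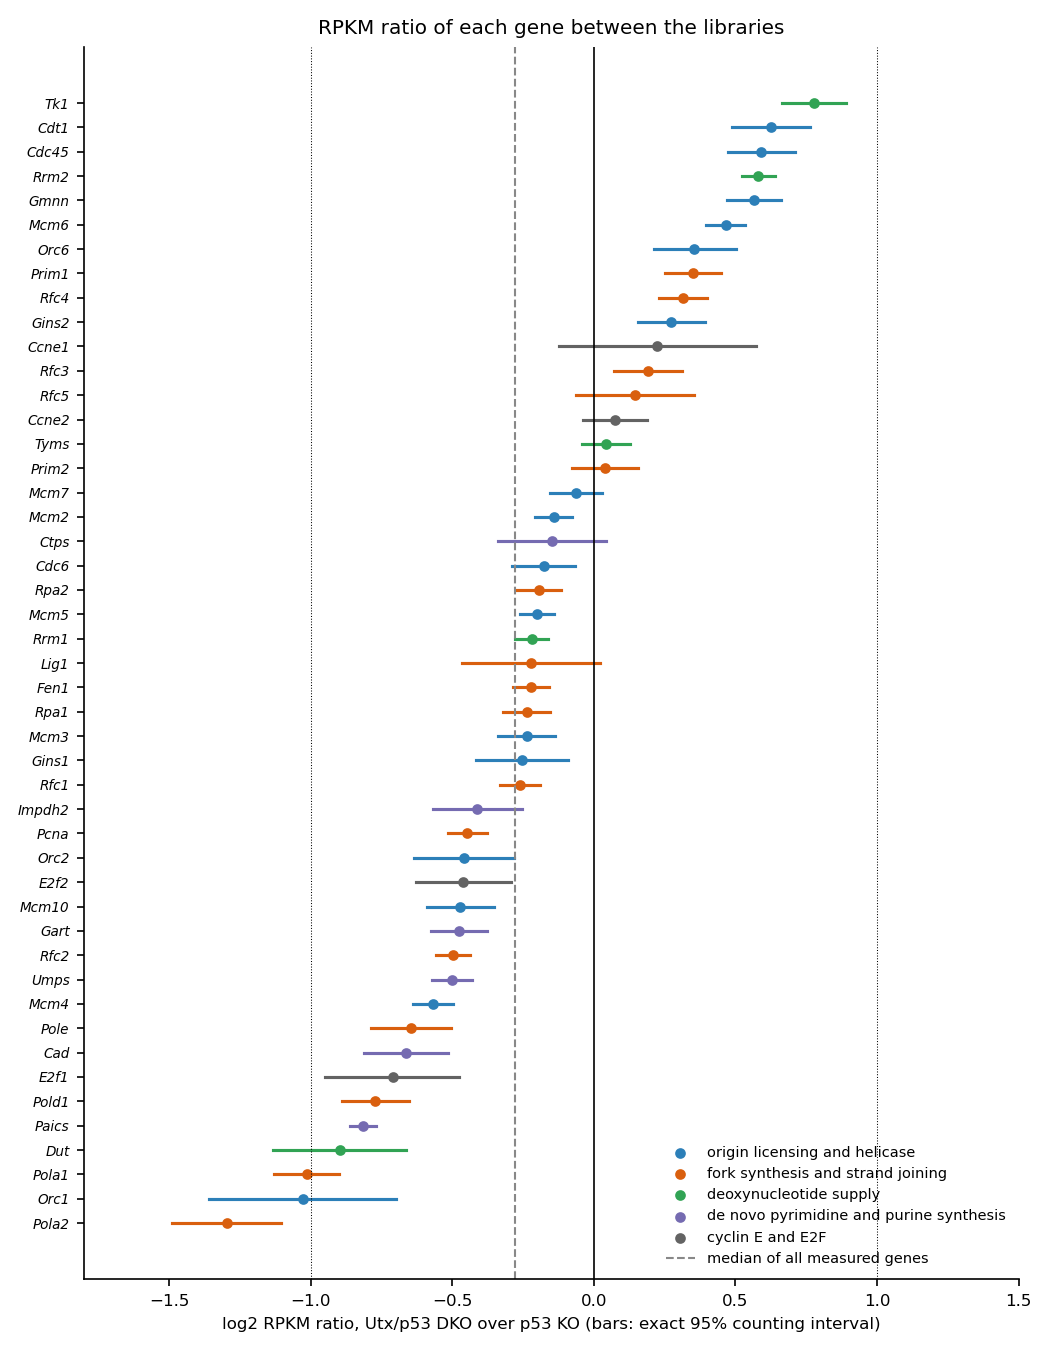
Log2 RPKM ratio of each of the 47 genes, Utx/p53 DKO over p53 KO, ordered from highest to lowest and coloured by role; points are ratios, bars exact 95% counting intervals, the dashed line the median of all measured genes and the dotted lines 2-fold either way. Tk1, Cdt1, Cdc45, Rrm2, Gmnn and Mcm6 stand at the top and Pola2, Orc1, Pola1 and Dut at the bottom. No gene reaches the upper dotted line, and Pola2, Orc1 and Pola1 lie past the lower one as plain ratios.

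E2F transcription factors are the textbook activators of these genes, so promoters of the licensing and fork genes are shown for the sequence they hold. RefSeq promoter windows (GRCm38.p6, 250 bases before to 50 after each start) were held for 39 of the 47 genes and searched on both strands for the E2F motif, TTTCGCGC or TTTGGCGC. Of the 39 genes, 10 (25.6%) held it, against 2.04% of the 8910 measured genes with a window and 0.929% of all 27025 genes with one. The genes were Cdt1, E2f2, Lig1, Mcm3, Mcm5, Mcm6, Mcm7, Orc1, Pola1 and Rfc3. The stretches below, 80 bases each from before the start and on the strand of the gene, show where it lies in genes from the upper part (Mcm6, Rfc3), the middle (Mcm5) and the lower part (Orc1, Pola1) of the order of differences. Every match on either strand is in capitals, and matches on opposite strands can overlap.
Mcm6, chr1:128359772-128359851, minus strand: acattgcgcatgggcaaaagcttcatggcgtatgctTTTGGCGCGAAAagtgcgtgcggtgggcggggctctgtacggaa
Rfc3, chr5:151651209-151651288, minus strand: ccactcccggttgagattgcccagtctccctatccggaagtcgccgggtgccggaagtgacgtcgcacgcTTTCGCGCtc
Mcm5, chr8:75109320-75109399, plus strand: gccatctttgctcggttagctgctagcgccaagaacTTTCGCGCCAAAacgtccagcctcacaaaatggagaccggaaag
Orc1, chr4:108579374-108579453, plus strand: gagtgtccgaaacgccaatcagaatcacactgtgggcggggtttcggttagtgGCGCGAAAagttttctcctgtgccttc
Pola1, chrX:93632250-93632329, minus strand: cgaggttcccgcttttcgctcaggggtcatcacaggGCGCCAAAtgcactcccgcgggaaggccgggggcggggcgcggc

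The first match lay 110 bases before the start in Mcm6, 10 in Rfc3, 153 in Mcm5, 27 in Orc1 and 138 in Pola1. The windows of Rfc3, Orc1 and Pola1 held 1 match each. That of Mcm5 held 2, which overlap on opposite strands, and that of Mcm6 held 3, of which 2 overlap in this way and the other lies 47 bases before the start. Genes with the motif had a median log2 difference of -0.21 and those without it -0.22, and the 10 genes ran from -0.94 (Pola1) to 0.60 (Cdt1), beside -1.18 to 0.76 for the 47. The genes that share these letters were therefore found at both ends of the order. A match is a description of the letters and not a binding site.

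Origin licensing and helicase genes came out slightly above the typical gene: the 16 had a median difference of -0.15, which is 0.08 above the all-gene median, with 11 above it and 5 below. Cdt1, its inhibitor geminin and Cdc45 were the highest of them. Cdt1, which helps load the helicase, stood at 27.7 RPKM (1211 reads) in DKO cells, against 18.0 RPKM (674 reads) in p53 KO cells, a ratio of 1.54 (1.40 to 1.70). Gmnn encodes geminin, which binds and blocks Cdt1, and stood at 129 RPKM in DKO cells, against 87.2 RPKM in p53 KO cells, a ratio of 1.48 (1.39 to 1.58). The 2 transcripts therefore kept nearly the same proportion, 4.65 geminin per Cdt1 in DKO cells, against 4.84 in p53 KO cells. Cdc45, which joins the helicase when origins fire, stood at 46.1 RPKM (1623 reads) in DKO cells, against 30.6 RPKM (924 reads) in p53 KO cells, a ratio of 1.51 (1.39 to 1.63).

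The remaining licensing factors did not share that height. Cdc6, the partner of Cdt1 in loading, stood at 14.8 RPKM in DKO cells, against 16.8 RPKM in p53 KO cells, so that Cdt1 per Cdc6 was 1.87 in DKO cells, against 1.07 in p53 KO cells. Mcm10, an initiation factor that works beside Cdc45, stood at 15.2 RPKM in DKO cells, against 21.1 RPKM in p53 KO cells, and Cdc45 per Mcm10 was 3.04 in DKO cells, against 1.45 in p53 KO cells. Such proportions within a library do not depend on how the libraries are scaled, though the pairs were chosen after their values were seen.

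The subunits of the origin recognition complex lay apart from each other. Orc1, its largest subunit and the one gained and lost within each cell cycle in human cells, was the lowest of the 47 genes in DKO cells, at 2.03 RPKM (122 reads), against 4.14 RPKM (213 reads) in p53 KO cells. Its plain RPKM ratio was 0.491 (0.390 to 0.616), which on the log2(RPKM + 1) scale is -0.76 because that scale draws in low values. Orc2 stood at 7.24 RPKM in DKO cells, against 9.95 RPKM in p53 KO cells. Orc6 lay above the all-gene median in each of the 8 settings, at 31.7 RPKM in DKO cells, against 24.8 RPKM in p53 KO cells, a ratio of 1.28 (1.16 to 1.41), and its exons overlap those of Vps35 on the other strand.

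The 6 subunits of the helicase work in equal numbers, yet the differences of their transcripts were not alike. Mcm6 stood at 76.5 RPKM (4425 reads) in DKO cells, against 55.4 RPKM (2748 reads) in p53 KO cells, a ratio of 1.38 (1.32 to 1.45). Mcm4 stood at 40.2 RPKM (2872 reads) in DKO cells, against 59.5 RPKM (3649 reads) in p53 KO cells, a ratio of 0.675 (0.643 to 0.709). Mcm6 per Mcm4 was 1.91 in DKO cells, against 0.932 in p53 KO cells. This pair holds the highest and the lowest difference of the 6 subunits and was chosen after the values were seen. The other 4 subunits lay closer to the typical gene, from 0.00089 (Mcm3) to 0.18 (Mcm7) log2 units above the all-gene median. Mcm2 and Mcm7 kept that side in each of the 8 settings, and Mcm3 and Mcm5 did not.

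Mcm2 stood at 56.1 RPKM in DKO cells, against 61.9 RPKM in p53 KO cells. Mcm3 stood at 119.6 RPKM in DKO cells, against 141 RPKM in p53 KO cells, and was the most abundant subunit in both libraries. Mcm5 stood at 68.1 RPKM in DKO cells, against 78.3 RPKM in p53 KO cells. The lowest subunit was Mcm4 in DKO cells and Mcm7 in p53 KO cells. The highest stood 2.98-fold above the lowest in DKO cells and 3.18-fold above it in p53 KO cells. Mcm7 itself stood at 42.5 RPKM in DKO cells, against 44.4 RPKM in p53 KO cells. Of the GINS subunits, Gins2 stood at 67.9 RPKM in DKO cells, against 56.2 RPKM in p53 KO cells, and Gins1 at 28.6 RPKM in DKO cells, against 34.1 RPKM in p53 KO cells.

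**Figure D2:**
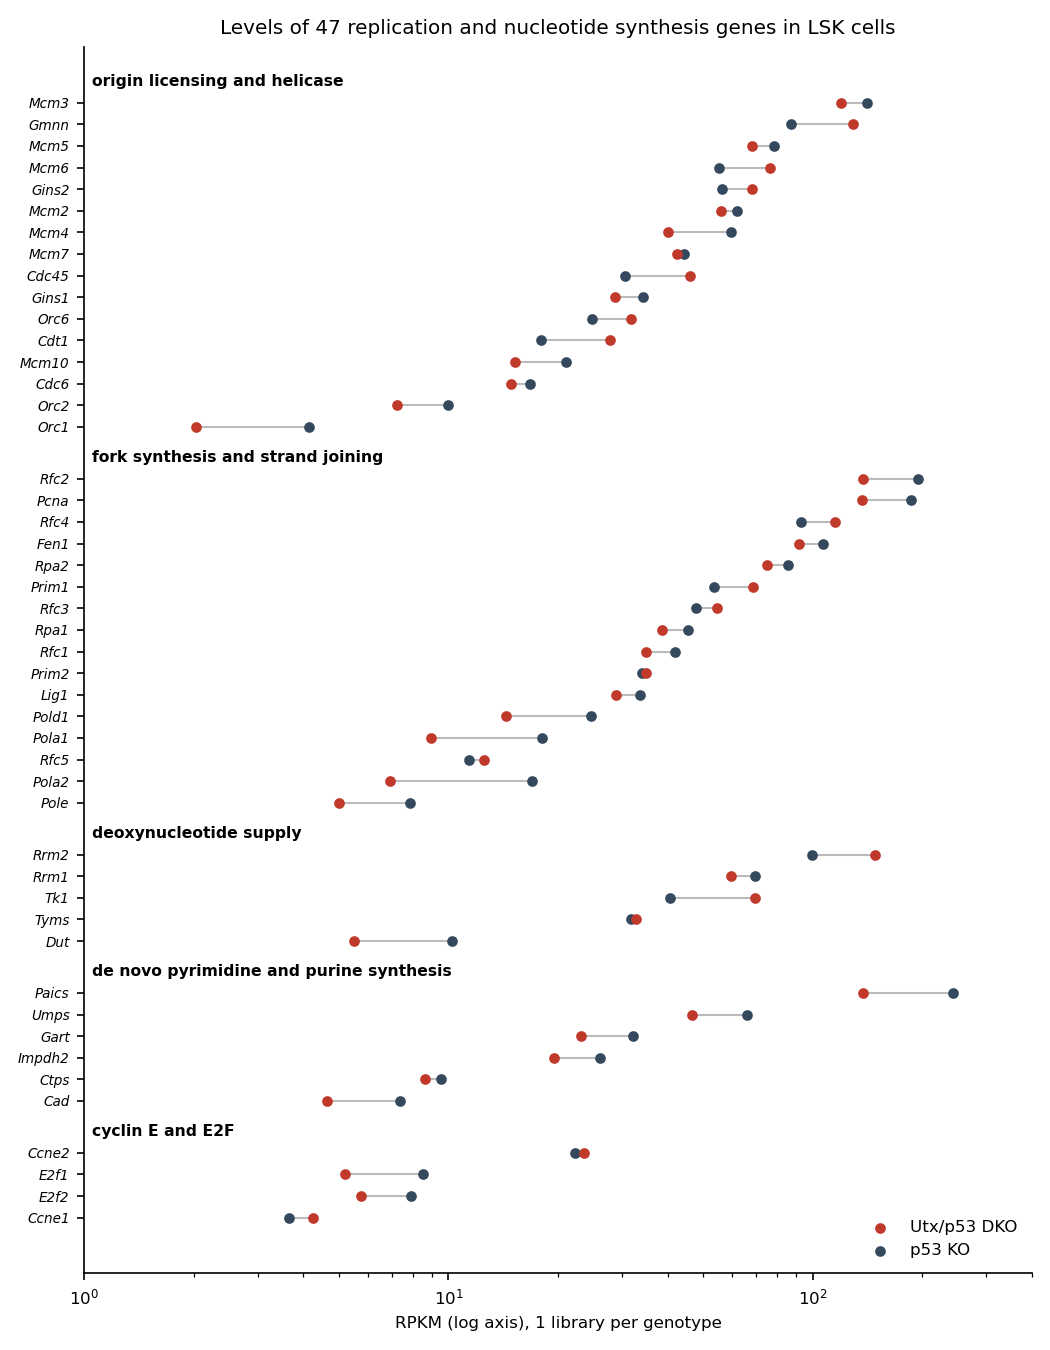
Level of each of the 47 genes in RPKM on a log axis, grouped by role, with the Utx/p53 DKO library in red and the p53 KO library in dark blue (1 library each, no error bar). The levels span from Orc1 at 2.03 to Rrm2 at 149 RPKM in DKO cells and from Ccne1 at 3.65 to Paics at 242 RPKM in p53 KO cells, and the pairs of points are mostly close compared with that span.

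Fork genes had a median difference of -0.23, which is 0.01 from the all-gene median, with 9 of 16 above it and 7 below. Polymerase alpha and primase, which form 1 complex that starts every new strand, lay on opposite sides of the typical gene. Pola2, the accessory subunit of polymerase alpha, stood at 6.89 RPKM (333 reads) in DKO cells, against 16.9 RPKM (701 reads) in p53 KO cells. That is 2.45-fold lower in DKO cells (2.15 to 2.81), -1.18 on the log2 scale, and the lowest value of the 47 genes. Pola1, the catalytic subunit, stood at 8.97 RPKM (956 reads) in DKO cells, against 18.1 RPKM (1656 reads) in p53 KO cells, 2.02-fold lower (1.86 to 2.19) as a plain ratio and -0.94 on the log2(RPKM + 1) scale, just short of the 2-fold rule.

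The primase subunits did not lie low with them. Prim1, the catalytic subunit of primase, stood at 68.5 RPKM (2091 reads) in DKO cells, against 53.7 RPKM (1408 reads) in p53 KO cells, a ratio of 1.27 (1.19 to 1.36). Prim2, its partner, stood at 35.0 RPKM in DKO cells, against 34.0 RPKM in p53 KO cells, a ratio of 1.03 (0.948 to 1.11). Prim1 per Pola2 was 9.93 in DKO cells, against 3.18 in p53 KO cells, and Prim1 per Pola1 was 7.63 in DKO cells, against 2.97 in p53 KO cells. In each of the 8 settings Pola1 and Pola2 lay below the all-gene median and Prim1 and Prim2 above it, though the scalings could hardly have changed this.

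The catalytic subunits of the other 2 replicative polymerases lay low as well. Pold1, of polymerase delta, stood at 14.4 RPKM (982 reads) in DKO cells, against 24.6 RPKM (1438 reads) in p53 KO cells, a ratio of 0.586 (0.539 to 0.636). Pole, of polymerase epsilon, stood at 5.01 RPKM (712 reads) in DKO cells, against 7.84 RPKM (955 reads) in p53 KO cells, a ratio of 0.639 (0.579 to 0.705). Pola1, Pold1 and Pole thus all had lower RPKM in DKO cells, as 65.2% of all measured genes did, and all 3 kept that sign in the 8 settings. The other subunits of polymerases delta and epsilon went both ways as deposited. Pold4 and Pole2 had the higher RPKM in DKO cells, and Pold2, Pold3, Pole3 and Pole4 the lower.

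The subunits of the clamp loader spanned a wide range of levels, 11.0-fold in DKO cells and 17.1-fold in p53 KO cells. Pcna, the clamp that holds polymerases on DNA, stood at 137 RPKM in DKO cells, against 186 RPKM in p53 KO cells, a ratio of 0.734 (0.699 to 0.770). Of the 5 subunits of the clamp loader, Rfc2 stood at 138 RPKM in DKO cells, against 194 RPKM in p53 KO cells, and Rfc1, the large subunit, at 34.9 RPKM in DKO cells, against 41.8 RPKM in p53 KO cells. The other 3 had the higher RPKM in DKO cells, except under scaling to equal summed RPKM, where all 3 were lower, and for Rfc5 also under that scaling without the granulocyte markers.

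Rfc4 stood at 115 RPKM in DKO cells, against 92.9 RPKM in p53 KO cells. Rfc3 stood at 54.5 RPKM in DKO cells, against 47.7 RPKM in p53 KO cells. Rfc5 stood at 12.6 RPKM in DKO cells, against 11.4 RPKM in p53 KO cells. The interval of its ratio, 1.11 (0.956 to 1.28), includes equal RPKM as deposited, and it lay above the all-gene median in each of the 8 settings. Rfc4 per Rfc2 was 0.838 in DKO cells, against 0.478 in p53 KO cells, although both proteins sit in the same loader.

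The single-strand binding proteins and the strand-joining enzymes lay at the typical gene. Rpa1 stood at 38.5 RPKM in DKO cells, against 45.4 RPKM in p53 KO cells, and Rpa2 at 74.7 RPKM in DKO cells, against 85.5 RPKM in p53 KO cells. Fen1, which trims the flap of Okazaki fragments, stood at 91.5 RPKM in DKO cells, against 107 RPKM in p53 KO cells. Lig1, which seals them, stood at 28.8 RPKM in DKO cells, against 33.6 RPKM in p53 KO cells. All 4 lay just above the all-gene median, from 0.0049 log2 units for Rpa1 to 0.04 for Rpa2.

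Deoxynucleotide supply was the highest of the role groups, with a median difference of 0.04, which is 0.28 above the all-gene median, and 4 of 5 genes above it. Tk1, the cytosolic thymidine kinase that salvages thymidine, had the highest difference of the 47 genes. It stood at 69.4 RPKM (1892 reads) in DKO cells, against 40.5 RPKM (947 reads) in p53 KO cells, a ratio of 1.71 (1.58 to 1.85), and its distance from the all-gene median was 0.999 log2 units, just short of 2-fold. Rrm2, the regulated small subunit of ribonucleotide reductase, was the most abundant of the 47 genes in DKO cells, at 149 RPKM, against 99.5 RPKM in p53 KO cells, a ratio of 1.49 (1.44 to 1.56). Rrm1, the large subunit that pairs with it, stood at 59.7 RPKM in DKO cells, against 69.5 RPKM in p53 KO cells, and Rrm2 per Rrm1 was 2.49 in DKO cells, against 1.43 in p53 KO cells.

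The genes around thymidylate were not alike either. Tyms, which makes thymidylate from deoxyuridylate, stood at 32.7 RPKM in DKO cells, against 31.7 RPKM in p53 KO cells, a ratio of 1.03 (0.971 to 1.09). Dut, the dUTPase that supplies that deoxyuridylate and keeps uracil out of DNA, stood at 5.50 RPKM (248 reads) in DKO cells, against 10.2 RPKM (396 reads) in p53 KO cells, a ratio of 0.537 (0.456 to 0.631). Tk1 per Dut was 12.6 in DKO cells, against 3.95 in p53 KO cells.

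De novo pyrimidine and purine synthesis genes were the lowest of the role groups. Their median difference was -0.48, which is -0.24 from the all-gene median, and all 6 had the lower RPKM in DKO cells, as 65.2% of all measured genes did, though 4 of them had the higher level under the authors' gfold constants and 1 under upper-quartile scaling. Relative to the all-gene median, 5 of 6 lay below it in each of the 8 settings. Paics, a bifunctional enzyme of the purine ring, was the most abundant of the 47 genes in p53 KO cells, at 137 RPKM in DKO cells, against 242 RPKM in p53 KO cells, a ratio of 0.568 (0.550 to 0.586). Gart, a trifunctional enzyme of the same pathway, stood at 23.1 RPKM in DKO cells, against 32.2 RPKM in p53 KO cells, a ratio of 0.719 (0.672 to 0.770). Impdh2, which commits inosine monophosphate to guanine nucleotides, stood at 19.5 RPKM in DKO cells, against 26.0 RPKM in p53 KO cells, a ratio of 0.752 (0.675 to 0.838).

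On the pyrimidine side, Cad, which carries out the first steps of the ring, stood at 4.64 RPKM (657 reads) in DKO cells, against 7.35 RPKM (892 reads) in p53 KO cells, a ratio of 0.632 (0.570 to 0.699). Umps, which finishes uridine monophosphate, stood at 46.6 RPKM in DKO cells, against 66.0 RPKM in p53 KO cells, a ratio of 0.707 (0.673 to 0.742). Ctps, the CTP synthase gene, was the exception above the all-gene median, at 8.61 RPKM in DKO cells, against 9.54 RPKM in p53 KO cells, with an interval of 0.790 to 1.03.

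The 4 G1/S regulators at the end of the list were not alike. Ccne1 and Ccne2 encode the cyclins that activate Cdk2 at S phase entry. Ccne1 stood at 4.26 RPKM (166 reads) in DKO cells, against 3.65 RPKM (122 reads) in p53 KO cells, and Ccne2 at 23.5 RPKM in DKO cells, against 22.3 RPKM in p53 KO cells. The intervals of both ratios (0.918 to 1.49 and 0.974 to 1.14) include equal RPKM as deposited. E2f1, an activating E2F, stood at 5.20 RPKM (255 reads) in DKO cells, against 8.52 RPKM (358 reads) in p53 KO cells, a ratio of 0.611 (0.518 to 0.719). E2f2, its relative, stood at 5.75 RPKM in DKO cells, against 7.92 RPKM in p53 KO cells, a ratio of 0.726 (0.647 to 0.816). Both cyclins lay above the all-gene median and both E2F genes below it in each of the 8 settings.

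Counts in lists of other genes of these processes are read against the same 6.6% and 13.5% of all measured genes. Of 34 other replisome and licensing genes 0 were 2-fold higher and 2 were lower, Top1 (topoisomerase I, which relieves twist ahead of the fork) at 12.1 RPKM in DKO cells, against 30.9 RPKM in p53 KO cells, and Mcm8 (a helicase related to the Mcm2 to Mcm7 subunits) at 2.92 RPKM in DKO cells, against 6.89 RPKM in p53 KO cells. The largest positive differences among them were those of Rnaseh2c, a subunit of ribonuclease H2, at 5.90 RPKM in DKO cells, against 2.81 RPKM in p53 KO cells, and of Rpa3, the smallest single-strand binding subunit, at 23.0 RPKM in DKO cells, against 13.5 RPKM in p53 KO cells. Their median lay -0.02 from the all-gene median. Top1 and Mcm8 both lie on chromosome 2, whose 846 measured genes had a median difference of -0.63, beside -0.21 on other chromosomes. The part of position in their differences was not tested.

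Of 33 other nucleotide metabolism genes 1 was 2-fold higher and 1 lower. Aprt, which salvages adenine, stood at 390.2 RPKM in DKO cells, against 129 RPKM in p53 KO cells, and Dctd, which deaminates dCMP to supply thymidylate synthesis, at 9.81 RPKM in DKO cells, against 37.8 RPKM in p53 KO cells. Their median lay -0.15 from the all-gene median, and 27 of 33 had the lower RPKM in DKO cells as deposited, where 65.2% of all measured genes did. Atic, the last enzyme of purine ring synthesis, stood at 34.2 RPKM in DKO cells, against 64.3 RPKM in p53 KO cells, and Impdh1, the relative of Impdh2, at 7.90 RPKM in DKO cells, against 15.0 RPKM in p53 KO cells.

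Of 17 other G1/S regulators none passed 2-fold in either direction, and their median lay 0.17 above the all-gene median. Those with the largest differences were all lower in DKO cells as deposited: Cdk2, the kinase of cyclin E, at -0.80, Tfdp2, a dimer partner of E2F proteins, at -0.69, E2f5 at -0.65 and Rbl1, a pocket protein, at -0.60 on the log2 scale. Of 30 mitosis genes 0 were 2-fold higher and 1 was lower, with a median 0.13 above the all-gene median. That gene was Bub1, a checkpoint kinase, at 3.11 RPKM in DKO cells, against 10.6 RPKM in p53 KO cells. Pttg1 (securin) had a difference of 0.91, Aurka -0.90 and Bub1b -0.81 on the log2 scale. Bub1, Aurka, Bub1b and Rbl1 lie on chromosome 2, where the median measured gene stood at -0.63, and the part of position was not tested. None of these list medians was tested against another.

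**Figure D3:**
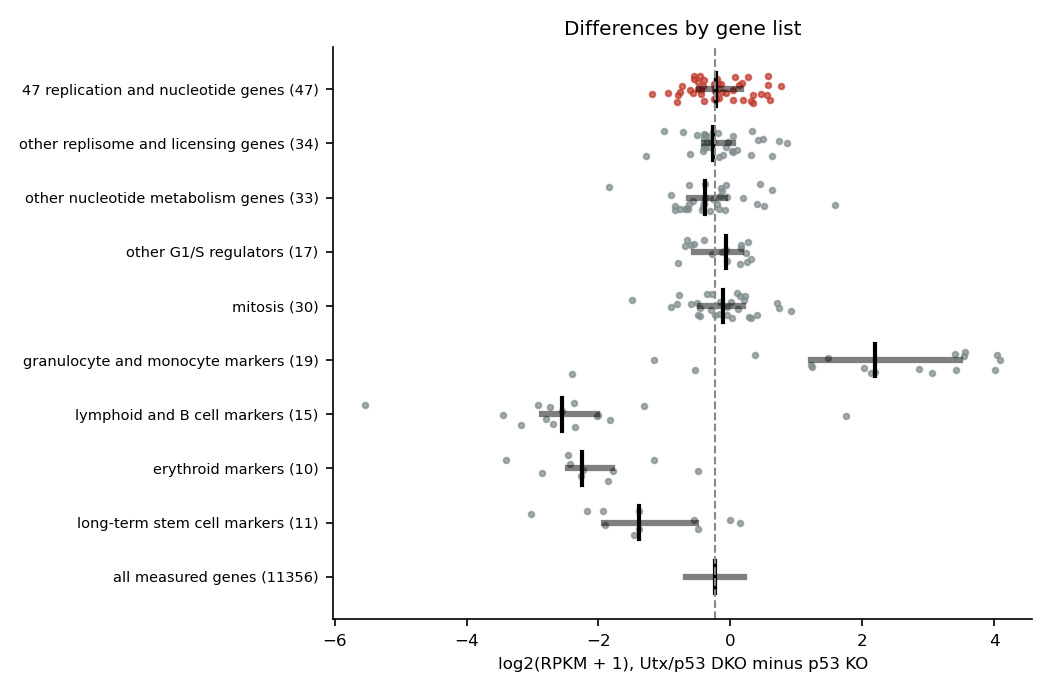
Log2(RPKM + 1) difference, Utx/p53 DKO minus p53 KO, of each measured gene (points, jittered vertically) by list, with the number measured in brackets; vertical bars are medians, thick horizontal bars the middle 50% of the genes, and the dashed line the median of all measured genes. The 47 genes and the 4 lists of related genes gather around the dashed line, while the granulocyte and monocyte markers (median 2.19) lie above it and the lymphoid (-2.55), erythroid (-2.25) and stem cell markers (-1.39) below.

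Among the 36 of the 47 genes for which a single length was recovered from the deposited values, the difference went with transcript length. Length and log2 difference had a Spearman rho of -0.59 across them, beside -0.18 across 10865 measured genes. These are descriptions, since genes share their libraries and are not replicates. The other 11 genes fitted several lengths and were left out. Of these, Pcna (-0.21), Rrm2 (0.81) and Paics (-0.57) lay away from the all-gene median. Mcm3, Mcm5, Cdc6, Fen1, Lig1, Rpa1, Rpa2 and Rrm1 lay close to it, from 0.00089 (Mcm3) to 0.07 (Cdc6). A single length was found for 95.7% of all measured genes, so the rho values rest on unlike filters. The 14 genes under 2000 bases, among them Gmnn (977 bases) and Tk1 (1369 bases), lay 0.47 above the all-gene median, where all measured genes of that length lay 0.19 above it. The 15 genes of 3000 bases or more, among them Pola1 (5347 bases), Cad (7106 bases) and Pole (7129 bases), lay -0.22 from it, where all measured genes of that length lay -0.13 from it. These classes were set after the values were seen. The 7 genes of lengths between these classes had a median 0.10 above the all-gene median. All measured genes of those lengths lay -0.07 from it. Pola2, the lowest gene, is 2424 bases long and Mcm6, among the highest, 2901 bases, so both fall between the classes. The part of length in any difference above was not tested.

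**Figure D4:**
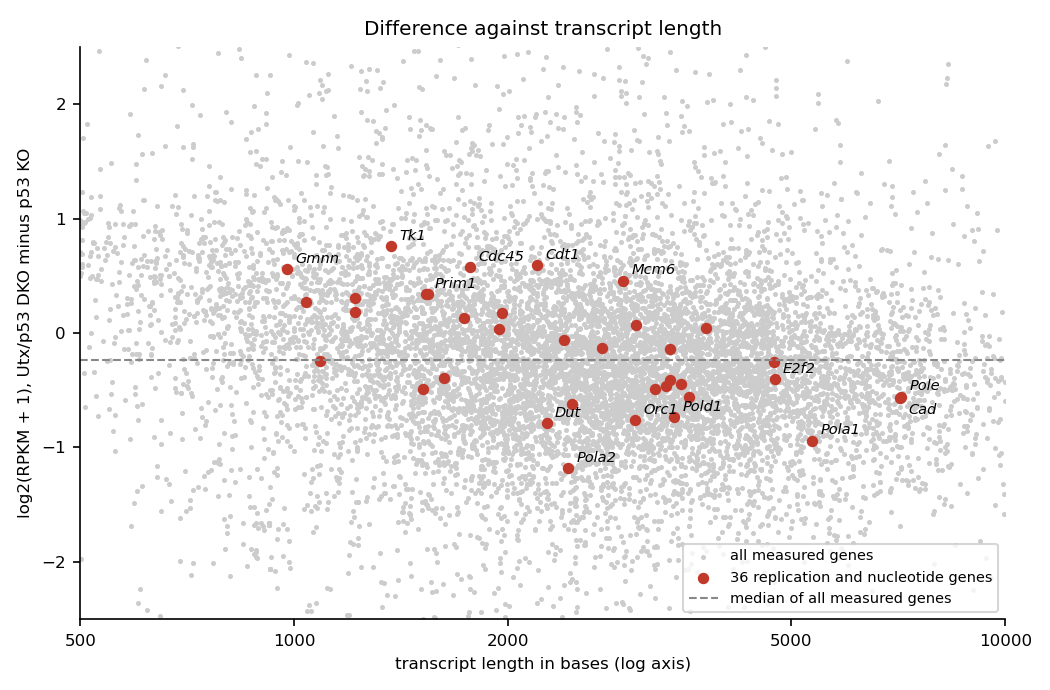
Log2(RPKM + 1) difference, Utx/p53 DKO minus p53 KO, against transcript length in bases (log axis), for the 36 replication and nucleotide genes with a recovered length (red, some named) over all measured genes (grey; genes beyond the axes are not drawn). The red points run from mostly above the dashed line, the median of all measured genes, at short lengths to mostly below it at long ones.

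Position and overlap touched some of the genes. Dut, E2f1, Gins1, Mcm10 and Pcna lie on chromosome 2, and had a median difference of -0.45, beside -0.63 for the 846 measured genes placed there. The 42 genes on other chromosomes had a median of -0.20, beside -0.21 for all measured genes placed there. Exons of 18 of the 47 genes overlap those of a gene on the opposite strand in the GRCm38 annotation, and the sources used here do not say whether counting used the strand. If it did not, reads of such pairs cannot be told apart. No level was found under the annotated name for the genes overlapping Cdc45, Fen1, Lig1, Gart, Orc1, Pole and Umps, so those were not compared. Of the rest, the overlapping gene was more abundant in both libraries for Orc2, Mcm7 and Orc6. Nif3l1, which overlaps Orc2, stood at 14.4 RPKM in DKO cells, against 26.3 RPKM in p53 KO cells. Cops6, which overlaps Mcm7, stood at 119 RPKM in DKO cells, against 127 RPKM in p53 KO cells. Vps35, which overlaps Orc6, stood at 71.9 RPKM in DKO cells, against 64.4 RPKM in p53 KO cells. Among the others, Tk1 overlaps Afmid, at 4.28 RPKM in DKO cells, against 4.12 RPKM in p53 KO cells. Rfc4 overlaps Eif4a2, at 63.0 RPKM in DKO cells, against 87.8 RPKM in p53 KO cells. Gins2 overlaps Gse1, at 5.88 RPKM in DKO cells, against 12.8 RPKM in p53 KO cells, and Paics overlaps Ppat, at 13.2 RPKM in DKO cells, against 21.8 RPKM in p53 KO cells. Pcna, Tyms and Impdh2 have named pseudogene copies, and the treatment of reads shared with them is not stated either. Of the 11 genes with more than 1 transcript in the table, 0 had transcripts that differed in sign, and only Orc2 had transcripts more than 0.2 log2 units apart (-0.41 for the one reported and -0.69 for the other).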

How the data were processed

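RNA-seq of LSK cells was analysed from 2 libraries, 1 per genotype, as the labels give it; per the labels' protocols 50 ng of total RNA was amplified with a SMART cDNA kit and sequenced from both ends at 100 bases. Tools and build, per the submitters' processing notes, were TopHat2 2.1.0, bcl2fastq 1.8.4 and mm9. The authors deposited 1 table of 28344 transcripts, the output of gfold 1.1.4 per the file headers. Its deposited RPKM values are scaled by transcript length and read total. The authors' fold changes and GFOLD values are log2 values that also use gfold's constants, 1 for DKO and 1.30144 for p53 KO, a shift of 0.60 against RPKM. The deposited q-value (gfold's E-FDR) was 1 throughout. RPKM columns were matched to libraries by their order in the header, and with that library's total each column yielded whole reads.

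Computed here, with Python 3.11.15, numpy 2.4.6, pandas 2.3.3 and scipy 1.17.1, was the difference of log2(RPKM + 1), which understates changes of low genes, for genes averaging 1 RPKM or more. Read counts came from a search over transcript lengths of 60 to 25000 bases; where several lengths were possible (11 of the 47 genes) the smallest count was used, which gives the widest interval. The 36 genes with 1 length had 122 to 4425 reads in DKO cells (median 1265) and 122 to 5043 in p53 KO cells (median 994). The search was tested on simulated data. Intervals are Clopper-Pearson intervals at 95% and cover counting error only, since PCR reads without molecular identifiers are not independent molecules. Promoters and overlaps came from RefSeq and GENCODE for GRCm38, not the authors' build, so the motif coordinates are those of GRCm38.p6.

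All 47 genes are named, and of each other list the 4 with the largest absolute difference (some of these are not reported here), beside a few named after their values were seen (Gse1, Afmid, Eif4a2 and other overlapping genes, Ly6a, Myc and the purine synthesis genes). The genes and lists were chosen with earlier results of these data known. Alternatives were pseudocounts of 0.1 and 5, filters, scalings, fold rules, the other transcript and leaving out chromosome 2; scaling without granulocyte markers was added after seeing the data.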

Additional observations from a re-analysis of the deposited data

How the results depend on the processing

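As reported, 0 of the 47 genes were 2-fold higher and 1 lower (6.6% and 13.5% of all measured genes), and relative to the all-gene median 0 and 0 (9.63% and 8.76%). A pseudocount of 0.1 gave 2 lower (18.7% of all genes), and 1 higher (11.8%) and 1 lower (13.0%) relative to the median. A pseudocount of 5 gave 0 lower (4.19%), and a 3-fold rule 0 lower (4.34%). A mean of at least 5 RPKM gave 1 lower relative to the median (7.71%), and the transcript of lowest mean gave 1 higher (9.59%) and 1 lower (8.67%) relative to it. Equal summed RPKM gave 6 lower (23.9%), upper-quartile scaling 1 higher relative to the median (9.82%), and the gfold constants 6 higher (16.5%), 0 lower (6.27%) and 1 higher relative to the median (10.3%). A 1.5-fold rule gave 2 higher (13.0%) and 7 lower (29.6%), and 6 higher (19.6%) and 2 lower (19.0%) relative to the median. Equal summed RPKM without the granulocyte and monocyte markers, added after seeing the data, gave 2 lower (1934 of 11356 measured genes) and moved the all-gene median by -0.13. The distance of the 47 genes' median from the all-gene median ran from -0.05 to 0.10 over all of these. Tk1, Cdt1, Cdc45, Rrm2, Gmnn and Mcm6 were the 6 highest genes in all 7 alternatives computed per gene. The scalings among these alternatives multiply all DKO values by 1 constant and so could hardly change the order. Of the 6 genes only Cdc45 has more than 1 transcript, so mainly the pseudocounts could have moved them. No paired analysis was possible because there is 1 library per genotype. Spread between animals was not measured, the sign of small differences depends on the scaling, and for Orc1 and Ccne1 the reads also limit precision.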

Other observations

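The 6 genes that carry out de novo synthesis of inosine monophosphate, Paics and Gart of the 47 with Ppat, Pfas, Adsl and Atic, were grouped after their values were seen. Each had the lower RPKM in DKO cells as deposited, as 65.2% of all measured genes did, with a median -0.51 log2 units from the all-gene median. Ppat, the first enzyme, stood at 13.2 RPKM in DKO cells, against 21.8 RPKM in p53 KO cells, and Pfas at 21.4 RPKM in DKO cells, against 39.2 RPKM in p53 KO cells. Adsl stood at 51.6 RPKM in DKO cells, against 67.6 RPKM in p53 KO cells. Adss, which takes inosine monophosphate on towards adenine nucleotides, stood at 21.3 RPKM in DKO cells, against 18.5 RPKM in p53 KO cells. The authors' GFOLD value was above 0 for 2 of the 6, below 0 for 3 and 0 for 1, so the direction as a plain level depends on the scaling. Of 4 folate enzymes that feed the pathway, Mthfd1, Shmt1 and Shmt2 had the lower RPKM in DKO cells, and Mthfd2, a mitochondrial enzyme, stood at 38.3 RPKM in DKO cells, against 26.4 RPKM in p53 KO cells.

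Further promoter motifs were searched on both strands. The E box CACGTG lay in 8 of 39 windows (20.5%), against 12.0% of measured genes: Fen1, Impdh2, Lig1, Paics, Pola2, Rfc1, Rpa1 and Tyms. Their median difference was -0.24, and that of the genes without it -0.19. Myc, a transcription factor known to bind this motif, stood at 22.7 RPKM in DKO cells, against 108 RPKM in p53 KO cells, and its part in any difference was not tested. The CCAAT box lay in 23 of 39 (59.0%), against 43.8% of measured genes, with medians of -0.23 with it and -0.19 without.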
